A study of Arabidopsis thaliana with 24 samples.

Results

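The comparison described here asks whether estradiol changed gene expression differently in an inducible TOR knock-down line and in the wild type of Arabidopsis thaliana roots kept on NPA. It is the genotype by estradiol interaction under NPA, the estradiol effect in UB10pro_amiR-TOR minus the estradiol effect in Col-0. It rests on 12 of the 24 libraries of the series, 3 in each of 4 groups, all of which carry NPA in their treatment label. The groups are the UB10pro_amiR-TOR line with estradiol (amiR-TOR NPA_Es), the same line with the solvent DMSO (amiR-TOR NPA), Col-0 with estradiol (Col-0 NPA_Es) and Col-0 with DMSO (Col-0 NPA). Seedlings 7 d old were placed on 10 µM NPA for 24 h, then on NPA with 10 µM estradiol or DMSO for another 24 h. They stayed on those plates for a further 6 h before harvest. Every group therefore carries NPA, and both estradiol groups carry the inducer whether or not the plants hold the construct. About 200 segments from the lower part of the roots were pooled per sample. The construct line is a single inducible line under a promoter that the labels call UB10pro, and no inducible line without the artificial microRNA entered the comparison. The labels do not say whether replicates came from separately grown plants, so p-values measure only the spread between these samples, which may be technical.

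TOR (target of rapamycin) is a protein kinase that couples nutrient and energy supply to growth, in plants as in yeast and animals, in part through ribosome production and translation. An artificial microRNA is an engineered small RNA that guides cleavage of a chosen transcript, and here estradiol switches on its expression. NPA blocks polar auxin transport and holds roots in a state without new lateral roots, while IAA, given to the other 12 libraries of the series, is the auxin that starts them. Heat shock factors and chaperones, described below, keep proteins folded when misfolded or newly made chains accumulate.

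Read totals of the 12 libraries lay between 17159911 and 44273249, and counts assigned to genes between 15246694 and 40494513. Between 22271 and 23906 genes had at least 1 count. In 1 library, replicate 1 of Col-0 NPA, 34.0% of the reads were unmapped (95% Wilson interval 33.97% to 34.01%, counting error only), and in the other libraries between 2.63% and 8.15%. Replicate 2 of amiR-TOR NPA_Es stood apart from its group. It differed from replicates 1 and 3 by chi-square values of 37.1 and 39.6 per degree of freedom over genes, while replicates 1 and 3 differed from each other with 6.01. The Col-0 groups were uneven too. Replicate 3 of Col-0 NPA_Es differed from replicates 1 and 2 by 17.2 and 25.6, against 6.16 between replicates 1 and 2. Pairs of Col-0 NPA lay between 16.1 and 28.7. No pair of replicates was as close as counting noise. All 6 root tissue markers were detected, with summed levels between 99.0 and 119.6 CPM, read counts scaled to a common library size, in amiR-TOR NPA_Es, 73.7 and 75.8 CPM in amiR-TOR NPA, 86.4 and 89.3 CPM in Col-0 NPA_Es, and 64.4 and 69.0 CPM in Col-0 NPA.

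The targeted gene was examined first. TOR (AT1G50030) had 33.3, 21.9 and 25.8 CPM in amiR-TOR NPA_Es, 52.3, 64.1 and 54.3 CPM in amiR-TOR NPA, 66.9, 77.1 and 67.7 CPM in Col-0 NPA_Es, and 56.3, 80.2 and 57.6 CPM in Col-0 NPA. All 3 libraries of the induced knock-down line lay below every other NPA library. On the log2 scale, estradiol changed TOR by -1.08 in amiR-TOR and by 0.12 in Col-0. The difference between these effects, which is the log2 interaction reported for each gene below, was -1.20 ± 0.215 (SE, 3 libraries per group). Its p-value was 0.00349 in edgeR's quasi-likelihood test with Benjamini-Hochberg adjustment over all 21290 genes tested, the test behind every adjusted p below. The effect kept its direction and its call when each of the 12 libraries was left out in turn, with values between -1.39 and -1.07. In root segments with many cell types, less RNA per cell and fewer cells expressing a gene cannot be told apart, for TOR or any gene below. Of 13 tested genes of TOR signalling, TOR itself was the only member called, where 2.62% of all tested genes were called. Its partner RAPTOR1B had a log2 interaction of -0.01 ± 0.209 and the substrate kinase S6K1 of 0.07 ± 0.140.

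The largest called interaction belonged to MIR319A (AT4G23713), which encodes the precursor of a microRNA that guides cleavage of TCP and MYB transcription factor messages. It had 317, 389.7 and 256 CPM in amiR-TOR NPA_Es. Against this stood 0.192, 0.320 and 0.376 CPM in amiR-TOR NPA, 0.0504, 0.161 and 0.0713 CPM in Col-0 NPA_Es, and 0.688, 0 and 0.495 CPM in Col-0 NPA. The induced line alone held the transcript in quantity, since every other NPA library had between 0 and 15 reads. The log2 interaction was 11.93 ± 1.25 (edgeR adjusted p = 2.5e-05), and its size depends on those few reads. Plant artificial microRNAs are often built into the MIR319A precursor. The labels do not name the precursor used here, and gene counts cannot tell the native precursor from such a construct. The mature microRNA of the native gene, from the RefSeq annotation of TAIR10.1, chr4:12353109-12353129 on the plus strand, is shown because its target genes were measured too. Capitals mark its seed, bases 2 to 8.
miR319a: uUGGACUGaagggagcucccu
Of the 7 target genes measured, the edgeR test called 0, where 2.62% of all tested genes were called. There was 1 at an unadjusted p under 0.05 and 1 called by DESeq2, MYB33 in both cases. TCP4 had 3.45, 3.11 and 3.57 CPM in amiR-TOR NPA_Es, 2.69, 2.84 and 2.42 CPM in amiR-TOR NPA, 2.07, 1.74 and 4.18 CPM in Col-0 NPA_Es, and 2.98, 2.5 and 1.32 CPM in Col-0 NPA, which overlapped. MYB33 came closest to a call, with 16.6, 15.1 and 16.4 CPM in amiR-TOR NPA_Es, 25.4, 23.8 and 24.0 CPM in amiR-TOR NPA, 29.0, 24.8 and 26.4 CPM in Col-0 NPA_Es, and 27.5, 31.5 and 26.9 CPM in Col-0 NPA. Its log2 interaction was -0.51 ± 0.144 (edgeR adjusted p = 0.0572).

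**Figure D1:**
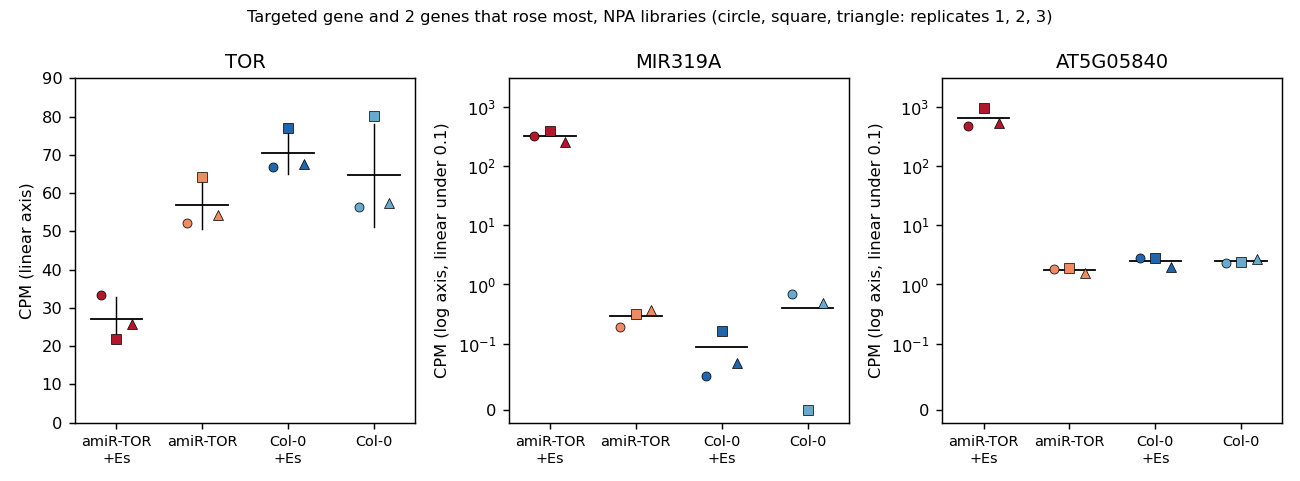
CPM of TOR (linear axis), MIR319A and AT5G05840 (log axes, linear under 0.1) in the 12 NPA libraries, by group; circles, squares and triangles are replicates 1, 2 and 3, horizontal bars the group means, and vertical bars the SD where the axis is linear. TOR is lowest in amiR-TOR with estradiol (21.9 to 33.3 CPM), while MIR319A and AT5G05840 reach 256 to 940.4 CPM there and stay under 3 CPM in all other groups.

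Across the transcriptome, 558 of 21290 tested genes, or 2.62%, had a called interaction (adjusted p under 0.05). Of these, 265 were positive (1.24% of tested genes), so that the log2 estradiol effect was higher in amiR-TOR than in Col-0, and 293 were negative (1.38%). The effect had opposite signs in the 2 genotypes for 205 of the positive genes, 168 of the negative genes and 6134 of all 21290. Among called genes, 274 (1.29%) had an interaction whose log2 size was 1 or more, 118 positive (0.554%) and 156 negative (0.733%). The split by direction depends on which libraries share the fit: with the 12 NPA libraries alone there were 688 calls, 169 positive and 519 negative, and without replicate 3 of Col-0 NPA_Es there were 417, of which 150 were positive and 267 negative. The median log2 interaction over all tested genes moved as well. It was 0.046 in the main fit, -0.043 with the 12 NPA libraries alone and 0.008 without replicate 3 of Col-0 NPA_Es. The part of this shift in the split was not tested. The count of calls fell by more than 1.5 times when any of 7 libraries was left out. That count was 316 without replicate 2 of amiR-TOR NPA_Es, 317, 300 and 347 without replicates 1, 2 and 3 of amiR-TOR NPA, 295 and 350 without replicates 1 and 2 of Col-0 NPA_Es, and 307 without replicate 3 of Col-0 NPA. Of the 316 genes called without replicate 2 of amiR-TOR NPA_Es, 296 were among the 558. That library was the highest of its group in 182 of the 265 positive genes and in 10004 of all 21290, and the lowest in 213 of the 293 negative genes and in 7195 of all. Its part in these calls was not tested further.

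Differences between estradiol and DMSO were also called in the wild type. In amiR-TOR on NPA 7027 genes were called between them (33% of those tested), and in Col-0 on NPA 4616 (21.7%). The Col-0 count was 2182 without replicate 3 of Col-0 NPA_Es and 2067 without replicate 3 of Col-0 NPA. The 265 positive genes had a median log2 estradiol effect of 0.63 in amiR-TOR and -0.29 in Col-0. For the 293 negative genes these medians were -0.93 in amiR-TOR and 0.08 in Col-0, and over all tested genes 0.07 in amiR-TOR and 0.01 in Col-0. The effect was larger in size in amiR-TOR for 70.6% of the positive genes, for 82.9% of the negative genes and for 56.8% of all genes tested.

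**Figure D2:**
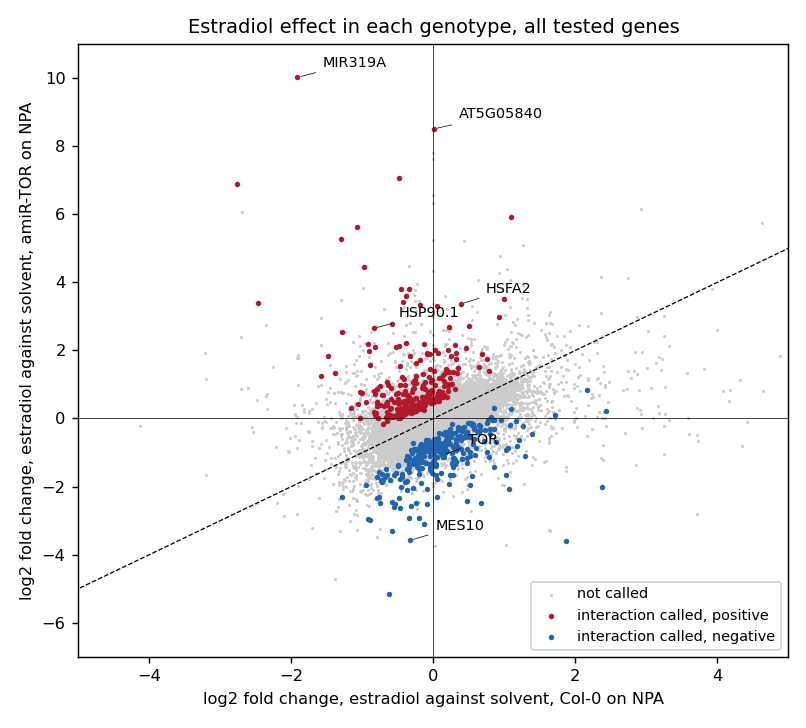
Log2 fold change of estradiol against solvent on NPA for each tested gene, in amiR-TOR (vertical) against Col-0 (horizontal); the dashed line marks equal effects, red points are the 265 called positive interactions and blue points the 293 called negative ones. Called genes lie above or below the dashed line, with MIR319A (10.02 in amiR-TOR, -1.92 in Col-0) and AT5G05840 (8.51 in amiR-TOR, 0.00 in Col-0) at the top; 5 genes, none of them called, lie outside the axes.

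The 12 genes with the most positive interactions, among called genes that averaged at least 2 CPM over the NPA libraries and took the same sign within all 3 sets of libraries that share a replicate number, had log2 values between 3.12 and 11.93. After MIR319A came AT5G05840, annotated as a putative replication factor C subunit. It had 479.7, 940.4 and 521 CPM in amiR-TOR NPA_Es, 1.86, 1.88 and 1.56 CPM in amiR-TOR NPA, 2.83, 2.78 and 1.97 CPM in Col-0 NPA_Es, and 2.34, 2.39 and 2.69 CPM in Col-0 NPA. The induced libraries lay far above all others, and the log2 interaction was 8.50 ± 0.382 (edgeR adjusted p = 4.27e-12). AT5G59845, a gibberellin-regulated family protein gene, had 43.2, 166 and 61.2 CPM in amiR-TOR NPA_Es and at most 2.27 CPM in any other NPA library (log2 interaction 4.82 ± 0.898, edgeR adjusted p = 0.00745). The neighbouring small GTPase gene AT5G59840 was called as well, at 1.09 ± 0.254 (edgeR adjusted p = 0.0231), although that call was lost when any of 5 libraries was left out.

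Enzyme and defence genes made up part of the rest. ALPHA DOX2, an alpha dioxygenase that oxidises fatty acids, had 63.1, 183 and 88.2 CPM in amiR-TOR NPA_Es, 18.5, 16.4 and 13.7 CPM in amiR-TOR NPA, 5.95, 8.80 and 4.99 CPM in Col-0 NPA_Es, and 7.75, 10.9 and 10.6 CPM in Col-0 NPA. Its level rose in the induced line above every other library (log2 interaction 3.37 ± 0.449, edgeR adjusted p = 0.000484). PDF2.1, a plant defensin gene, had 120.4, 101.3 and 152 CPM in amiR-TOR NPA_Es and 10.4, 11.9 and 15.7 CPM in amiR-TOR NPA, against 32.6, 27.0 and 25.3 CPM in Col-0 NPA_Es and 40.1, 19.4 and 22.4 CPM in Col-0 NPA (3.24 ± 0.491, edgeR adjusted p = 0.00175). Without estradiol the amiR-TOR line thus lay below Col-0 for this gene, and with estradiol above it. CYP72A14, a cytochrome P450 gene, had 236, 632 and 200.3 CPM in amiR-TOR NPA_Es and between 37.6 and 115 CPM elsewhere (3.12 ± 0.465, edgeR adjusted p = 0.00147). CSLB03, a cellulose synthase-like gene, had 9.71, 44.4 and 7.11 CPM in amiR-TOR NPA_Es and between 2.93 and 9.90 CPM elsewhere, so its groups overlapped with Col-0 NPA. Its log2 interaction was 3.82 ± 0.746 (edgeR adjusted p = 0.00922) and 2.53 without replicate 2 of amiR-TOR NPA_Es.

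The other 5 most positive genes were 4 of low level outside the induced group and HSP90.1, described with the heat shock genes. AT5G41280, a receptor-like kinase related gene, and AT3G13672, a TRAF-like gene, had log2 interactions of 4.15 ± 0.807 and 3.87 ± 0.729. AT1G09421, annotated as a non-coding RNA, had 6.99, 13.7 and 7.26 CPM in amiR-TOR NPA_Es and at most 0.551 CPM elsewhere (6.57 ± 0.871, edgeR adjusted p = 0.000212). When reads were counted without regard to strand its adjusted p was 1, so the counting of this locus is uncertain. AT5G40620, an uncharacterised protein gene, had 7.52, 49.4 and 9.07 CPM in amiR-TOR NPA_Es and at most 0.321 CPM elsewhere. Its call (7.55 ± 1.82, edgeR adjusted p = 0.0319) was lost in 9 of the 12 fits that left out a library, with values between 6.14 and 7.95. Replicate 2 of amiR-TOR NPA_Es was the highest of its group in 11 of these 12 genes, and all 12 were still called without it.

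A further 3 genes, chosen after their values were seen, were read almost only in the induced line but gave no called interaction. The pectin lyase-like gene AT1G56710 had 108, 472 and 98.2 CPM in amiR-TOR NPA_Es and at most 4 reads in any other NPA library (edgeR adjusted p = 0.147). AT1G71470 had 163, 1578 and 183 reads in amiR-TOR NPA_Es and 0 in every other NPA library. The subtilase gene SBT5.4 had 58, 564 and 109 reads in amiR-TOR NPA_Es, 2, 0 and 0 in amiR-TOR NPA and 0 in every Col-0 library on NPA. With no reads in Col-0, the interaction of these last 2 genes could not be estimated (edgeR adjusted p = 1 for each).

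The 12 genes with the most negative interactions, chosen by the same rule, had log2 values between -3.25 and -2.24 and were mostly of low level. Hormone genes were among them. MES10, a member of the methyl esterase family, had 0.534, 0.0972 and 0.196 CPM in amiR-TOR NPA_Es, 3.33, 3.52 and 2.47 CPM in amiR-TOR NPA, 3.03, 3.31 and 3.25 CPM in Col-0 NPA_Es, and 3.90, 3.58 and 4.62 CPM in Col-0 NPA. All 3 induced libraries lay below every other (-3.25 ± 0.645, edgeR adjusted p = 0.00745). ATGA2OX1, which encodes a gibberellin 2-oxidase that inactivates gibberellins, had 0.777, 0.389 and 1.33 CPM in amiR-TOR NPA_Es and between 2.64 and 5.09 CPM elsewhere (-2.90 ± 0.524, edgeR adjusted p = 0.00375). CYP735A1, which hydroxylates cytokinins to trans-zeatin forms, had 1.26, 0.745 and 1.14 CPM in amiR-TOR NPA_Es, 4.68, 4.12 and 6.51 CPM in amiR-TOR NPA, 6.71, 6.90 and 10.7 CPM in Col-0 NPA_Es, and 9.91, 7.39 and 6.21 CPM in Col-0 NPA. Again the induced line was below all others (-2.35 ± 0.501, edgeR adjusted p = 0.0121).

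RBCS1A, a small subunit gene of Rubisco, had 12.7, 7.09 and 3.61 CPM in amiR-TOR NPA_Es, 69.7, 71.9 and 87.9 CPM in amiR-TOR NPA, 65.4, 56.9 and 31.7 CPM in Col-0 NPA_Es, and 81.4, 59.3 and 89.5 CPM in Col-0 NPA. It fell in the induced line below every other library (-2.73 ± 0.462, edgeR adjusted p = 0.00371). RBCS1A is 1 of 5 markers of photosynthetic shoot tissue that were examined. It was the only member called, where 1.38% of all tested genes were called negative. The other 4 summed to between 61.0 and 90.3 CPM in amiR-TOR NPA_Es, 153 and 161 CPM in amiR-TOR NPA, 85.7 and 151 CPM in Col-0 NPA_Es, and 193 and 252 CPM in Col-0 NPA, and none was at 0 in any group. The part of shoot-type transcripts in the RBCS1A result was not tested.

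AT1G80165, annotated as a cotton fibre protein, had 0.922, 0.680 and 0.667 CPM in amiR-TOR NPA_Es and between 5.59 and 14.7 CPM elsewhere (-2.95 ± 0.462, edgeR adjusted p = 0.00107). It held 2666 strand-specific reads over the 24 libraries but 0 when strand was ignored, so its counting is uncertain. BGLU5, a beta-glucosidase gene, had a log2 interaction of -2.70 ± 0.621 (edgeR adjusted p = 0.0205). Its adjusted p was 0.0687 without replicate 1 of Col-0 NPA_Es, 0.0643 without replicate 2 of amiR-TOR NPA_Es and 0.06475 without replicate 3 of amiR-TOR NPA. For the glycosyltransferase gene AT2G22590 the value was -2.39 ± 0.525 (edgeR adjusted p = 0.0202), and the adjusted p was 0.0589 without replicate 2 of amiR-TOR NPA and 0.0569 without replicate 3 of Col-0 NPA. RTFL7, a gene of the ROTUNDIFOLIA-like small peptide family, kept its call in only 1 of the 12 fits that left out a library (-2.27 ± 0.602, edgeR adjusted p = 0.0440). The remaining 4, AT1G16960, AT1G32470, AT5G43440 and AT4G24350, had log2 interactions between -2.57 and -2.24 that stayed called in all of those fits.

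**Figure D3:**
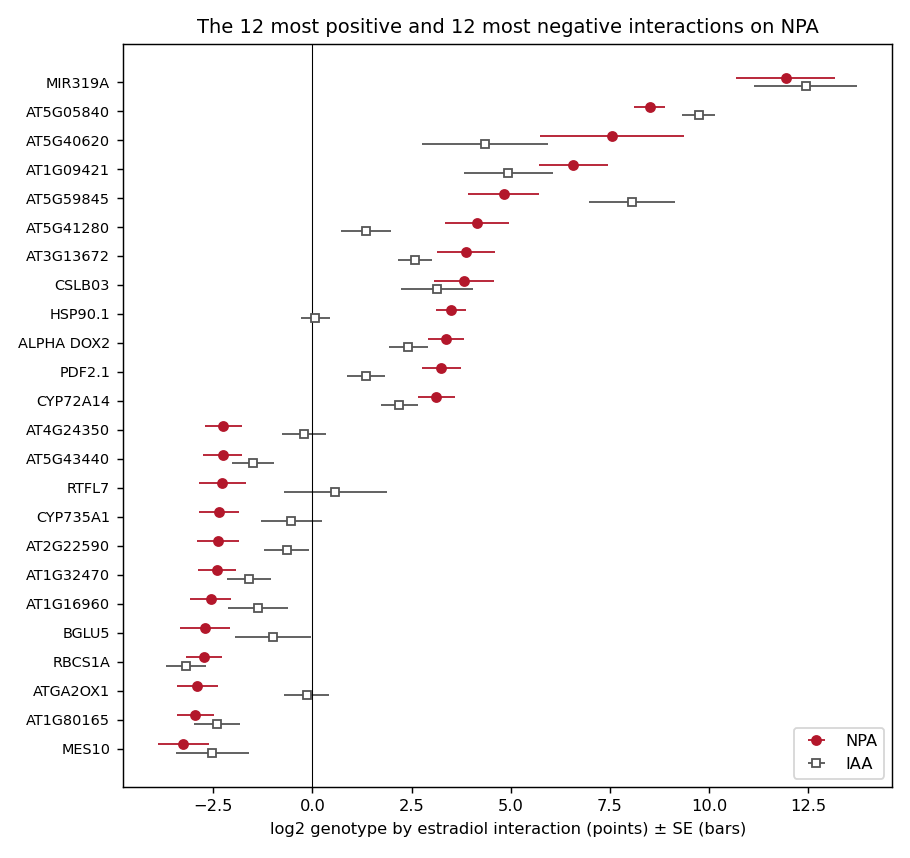
Log2 genotype by estradiol interaction (points) with SE (bars) of the 12 most positive and 12 most negative genes on NPA (filled) and, for the same genes, on IAA (open squares). MIR319A and AT5G05840 lie far to the right in both, whereas HSP90.1 is at 3.49 on NPA and 0.08 on IAA and RTFL7 at -2.27 on NPA and 0.58 on IAA.

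Of the gene lists examined, that of heat shock genes held the most called members. Of 15 tested members of a 17-gene list, 7 had a positive and 1 a negative called interaction, against 1.24% and 1.38% of all genes. The median log2 interaction of the 15 was 1.05, against 0.05 over all genes tested. Their median log2 estradiol effect was 0.23 in amiR-TOR and -0.24 in Col-0. The 17 genes summed to between 1153 and 1349 CPM in amiR-TOR NPA_Es, 452 and 543 CPM in amiR-TOR NPA, 506 and 514 CPM in Col-0 NPA_Es, and 606 and 728 CPM in Col-0 NPA.

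HSFA2, the transcription factor that sustains the heat response, had 21.2, 16.9 and 19.9 CPM in amiR-TOR NPA_Es, 1.86, 2.17 and 1.51 CPM in amiR-TOR NPA, 2.02, 1.29 and 1.92 CPM in Col-0 NPA_Es, and 1.56, 1.42 and 0.990 CPM in Col-0 NPA. The 3 induced libraries lay above all others by a wide margin (log2 interaction 2.98 ± 0.318, edgeR adjusted p = 1.9e-05). HSP90.1, a heat-inducible cytosolic chaperone, had 283, 448 and 261 CPM in amiR-TOR NPA_Es, 55.2, 61.4 and 41.6 CPM in amiR-TOR NPA, 28.3, 28.6 and 34.6 CPM in Col-0 NPA_Es, and 35.9, 61.2 and 67 CPM in Col-0 NPA. Its log2 interaction of 3.49 ± 0.375 (edgeR adjusted p = 3.35e-05) combined an estradiol effect of 2.65 in amiR-TOR with -0.84 in Col-0, while for HSFA2 these effects were 3.36 in amiR-TOR and 0.39 in Col-0. HSP70-4, a cytosolic HSP70, had 518, 565 and 500.1 CPM in amiR-TOR NPA_Es, 153, 156 and 116 CPM in amiR-TOR NPA, 125, 116 and 175 CPM in Col-0 NPA_Es, and 132, 145 and 164 CPM in Col-0 NPA (1.98 ± 0.258, edgeR adjusted p = 0.00021). HSP101, the disaggregase that recovers proteins from aggregates, had 79.9, 71.3 and 72.6 CPM in amiR-TOR NPA_Es, 28.3, 24.0 and 20.9 CPM in amiR-TOR NPA, 16.2, 13.5 and 14.4 CPM in Col-0 NPA_Es, and 20.5, 15.2 and 16.4 CPM in Col-0 NPA. For these genes too the induced libraries stood above all others (HSP101 1.85 ± 0.281, edgeR adjusted p = 0.00103).

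Smaller positive interactions were called for MBF1C, a transcriptional coactivator of heat tolerance, at 1.42 ± 0.291 (edgeR adjusted p = 0.0111), and for FES1A, an HSP70-binding protein, at 1.1 ± 0.155 (edgeR adjusted p = 0.000392). ROF2, a peptidyl-prolyl isomerase that acts with HSP90, had 1.05 ± 0.274 (edgeR adjusted p = 0.0398) and missed the threshold in 9 of the 12 fits with a library removed. The member called negative, GOLS1, makes galactinol for raffinose sugars and is not a chaperone. It had 43.1, 22.2 and 38.6 CPM in amiR-TOR NPA_Es, 105, 112 and 103 CPM in amiR-TOR NPA, 139.6, 136 and 119.7 CPM in Col-0 NPA_Es, and 167, 168 and 201 CPM in Col-0 NPA. Its value of -1.19 ± 0.309 (edgeR adjusted p = 0.0438) lost its call in 10 of those fits. The tested small heat shock protein genes of the list were not called. Outside the list, AT5G51440, annotated as an HSP20-like chaperone, was called at 1.58 (edgeR adjusted p = 0.000225). HSP17.4 had 5.63, 5.02 and 5.42 CPM in amiR-TOR NPA_Es, 8.14, 6.18 and 4.57 CPM in amiR-TOR NPA, 0.858, 0.767 and 1.38 CPM in Col-0 NPA_Es, and 0.734, 2.80 and 2.86 CPM in Col-0 NPA. Here amiR-TOR lay above Col-0 with and without estradiol (0.81 ± 0.506, edgeR adjusted p = 0.447). The factor genes HSFA7A (0.46 ± 0.329) and DREB2A (0.52 ± 0.360) were likewise not called. A factor gene outside the list, AT-HSFB2B (AT4G11660), was called at 0.97 (edgeR adjusted p = 0.033).

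**Figure D4:**
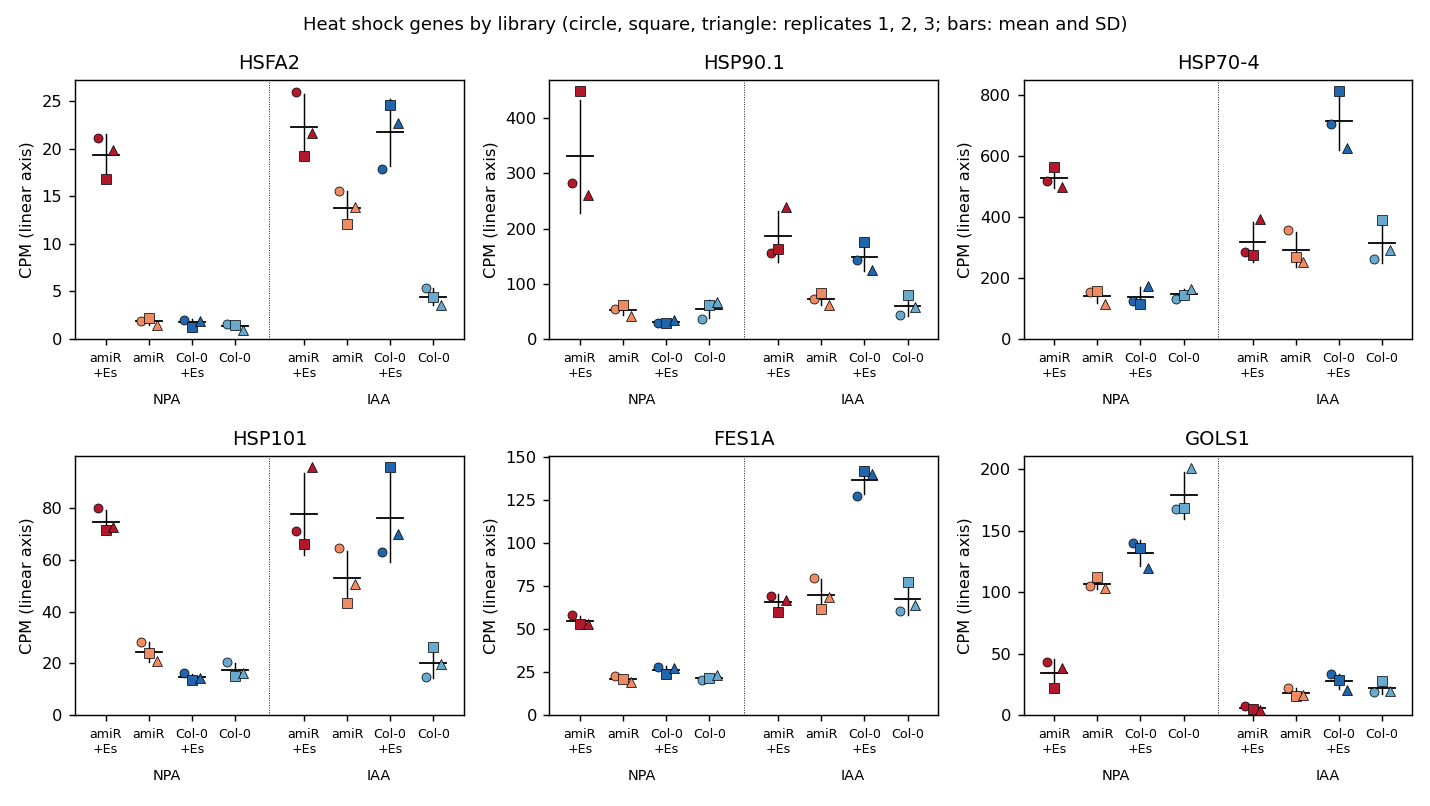
CPM (linear axes from 0) of 6 heat shock genes by group, NPA libraries left of the dotted line and IAA libraries right of it, with replicates as circles, squares and triangles and group means with SD as bars. On NPA the first 5 genes are high only in amiR-TOR with estradiol (HSFA2 16.9 to 21.2 CPM there, at most 2.17 CPM in the other NPA libraries). On IAA Col-0 with estradiol is high, while amiR-TOR with estradiol is not high for every gene. HSP70-4 on IAA has 276 to 393 CPM in amiR-TOR with estradiol, 251 to 359 CPM in amiR-TOR without it and 625 to 816 CPM in Col-0 with estradiol. GOLS1 is lowest in amiR-TOR with estradiol on both media.

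Heat shock factors bind inverted GAA units, so the 250 bases before each annotated gene start were searched on both strands for GAANNTTC or TTCNNGAA. A long form, in which either is followed by NN and then by another GAA or TTC in alternation, was searched as well and contains a short form. A short form was found before 15.8% of 21204 tested nuclear genes and before 7 of the 15 tested heat shock genes. Among the 7 called positive it was found before 2, HSFA2 and FES1A, and among the other 8 before 5. A long form was found before 0.443% of all genes and before 5 of the 15, of which HSFA2 was the only 1 called positive. The windows of HSFA2 (chr2:11135374-11135623, plus strand) and HSP17.4 (chr3:16984868-16985117, minus strand) are shown, from RefSeq TAIR10.1. Both hold a long form, while HSFA2 had a called interaction and HSP17.4 had not. GOLS1, called negative, holds a long form too. Each is written 5′ to 3′ on the gene's strand, with every match in capitals.
HSFA2: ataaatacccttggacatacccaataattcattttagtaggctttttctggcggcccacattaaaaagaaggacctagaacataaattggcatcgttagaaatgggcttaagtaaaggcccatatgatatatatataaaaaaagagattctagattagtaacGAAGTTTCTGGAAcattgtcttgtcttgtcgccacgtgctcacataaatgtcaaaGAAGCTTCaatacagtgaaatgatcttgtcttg
HSP17.4: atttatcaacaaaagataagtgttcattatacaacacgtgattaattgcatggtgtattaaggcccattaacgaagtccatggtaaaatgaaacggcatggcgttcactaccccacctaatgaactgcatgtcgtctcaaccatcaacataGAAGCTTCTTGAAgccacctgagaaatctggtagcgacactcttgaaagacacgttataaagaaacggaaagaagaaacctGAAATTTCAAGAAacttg
These matches are letters in a window and no measure of factor binding, and the windows end at the annotated start. An annotated start can differ from the site where transcription begins, so a window may miss the promoter. The window of HSP90.1, which held no match, ends in an open reading frame that begins with ATG. The counts above therefore do not show which genes lack the element.

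The same interaction was measured on IAA in 12 other libraries, 3 per group, which were moved to 10 µM IAA with or without estradiol for the last 6 h. There 1952 genes were called, or 9.17% of those tested, and the count was 1232 without replicate 3 of amiR-TOR IAA_Es and 1146 without replicate 3 of amiR-TOR IAA. The genes called on both media numbered 239, which is 42.8% of those called on NPA and 12.2% of those called on IAA. Of these, 216 had the same sign and 23 the opposite sign. The difference between the NPA and the IAA interaction was itself called for 153 genes (0.719% of those tested), 52 of them among the 558. That count of 153 was 97 without replicate 2 of amiR-TOR NPA, 89 without replicate 2 of Col-0 NPA_Es, 95 without replicate 1 of amiR-TOR IAA, 97 without replicate 2 of Col-0 IAA_Es and 237 without replicate 1 of Col-0 IAA_Es. TOR (-1.20 on NPA, -1.55 on IAA) and MIR319A (11.93 on NPA, 12.43 on IAA) were called on both media, with no called difference between them. Of the 12 most positive NPA genes, 8 were called on IAA and all 12 had the same sign there, and of the 12 most negative, 2 were called and 11 had the same sign. Over all tested genes, 62.3% had the same sign on both media.

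On IAA the called heat shock genes had negative interactions. Of the 15 tested, 0 had a called positive and 9 a called negative interaction on IAA, where the background is 4.44% positive and 4.73% negative, with a median log2 value of -1.14. DESeq2 called 0 positive and 10 negative, and 0 were positive at an unadjusted p under 0.05. HSFA2 had 26, 19.2 and 21.6 CPM in amiR-TOR IAA_Es, 15.5, 12 and 13.9 CPM in amiR-TOR IAA, 17.8, 24.6 and 22.7 CPM in Col-0 IAA_Es, and 5.32, 4.41 and 3.58 CPM in Col-0 IAA. On IAA, then, estradiol-treated Col-0 reached the level of the induced line. The NPA minus IAA difference in log2 interaction was 4.61 for HSFA2 (edgeR adjusted p = 1.54e-06), 3.41 for HSP90.1 (edgeR adjusted p = 0.0022), 3.05 for HSP70-4 (edgeR adjusted p = 0.000103) and 3.22 for HSP101 (edgeR adjusted p = 0.000155). For HSP90.1 the IAA interaction was 0.08 ± 0.364 and not called. Of the 23 genes called with opposite signs, 11 are on the heat shock list or annotated as chaperone or heat shock products, a count made after values were seen. Among all 21290 tested genes, 249 are annotated with such products and 15 are on the list. The 4 that were negative on NPA and positive on IAA were XCP2 (xylem cysteine peptidase), BGLU35 (a beta-glucosidase), QRT2 (a pectin lyase-like protein) and AT5G54370 (late embryogenesis abundant-like).

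Other gene lists showed few called members. Lateral root and auxin response genes had 1 positive and 1 negative call among 14, against 1.24% positive and 1.38% negative over all genes, both of genes with few reads. PUCHI, a transcription factor of lateral root primordia, had 0.922, 0.810 and 0.589 CPM in amiR-TOR NPA_Es, 0.192, 0.142 and 0.215 CPM in amiR-TOR NPA, 0.101, 0.242 and 0.523 CPM in Col-0 NPA_Es, and 0.321, 0.672 and 0.440 CPM in Col-0 NPA. The groups overlapped between amiR-TOR NPA_Es and Col-0 NPA (2.62 ± 0.561, edgeR adjusted p = 0.0122), and the adjusted p was 0.0558 without replicate 2 of amiR-TOR NPA and 0.0611 without replicate 2 of Col-0 NPA. LBD18, an auxin-induced transcription factor of lateral root formation, had 1.17, 0.939 and 0.903 CPM in amiR-TOR NPA_Es, 1.86, 1.1 and 1.29 CPM in amiR-TOR NPA, 1.92, 1.09 and 1.64 CPM in Col-0 NPA_Es, and 0.505, 0.522 and 0.770 CPM in Col-0 NPA. Its interaction of -1.85 ± 0.358 (edgeR adjusted p = 0.00637) combined a log2 estradiol effect of -0.46 in amiR-TOR with 1.39 in Col-0.

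Phosphate genes had 2 positive calls among 17, against 1.24% of all genes. PHT1;4, a high-affinity phosphate transporter, had 127, 208 and 125 CPM in amiR-TOR NPA_Es, 68.2, 69.9 and 80.3 CPM in amiR-TOR NPA, 54.3, 52.6 and 69.8 CPM in Col-0 NPA_Es, and 87.9, 66.6 and 61.0 CPM in Col-0 NPA (1.36 ± 0.284, edgeR adjusted p = 0.0116). The acid phosphatase gene PAP17 was called at 1.07 ± 0.283 (edgeR adjusted p = 0.0445), which was lost in 10 of the 12 fits that left out a library. Among 10 type-A response regulators, which dampen cytokinin signalling, ARR9 was called (1.38% of all genes were called negative). Of the 10, 9 lay below 0, with a median of -0.43, against 9426 of all 21290 genes and a median of 0.05. ARR9 had 40.3, 36.8 and 44.8 CPM in amiR-TOR NPA_Es, 64.3, 62.5 and 59.5 CPM in amiR-TOR NPA, 73.3, 69.6 and 76.5 CPM in Col-0 NPA_Es, and 82.5, 64.2 and 71.8 CPM in Col-0 NPA. It fell in the induced line below all other libraries (-0.62 ± 0.126, edgeR adjusted p = 0.00859).

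Of 17 genes of the Casparian strip and suberin, the water and ion barriers of the root, 14 lay below 0, against 9426 of all 21290 genes, and GPAT7 was called, against 1.38% of all genes called negative. GPAT7, a glycerol-3-phosphate acyltransferase, had 13.5, 5.57 and 12.4 CPM in amiR-TOR NPA_Es, 21.1, 26.9 and 21.9 CPM in amiR-TOR NPA, 17.3, 15.2 and 10.9 CPM in Col-0 NPA_Es, and 10.2, 12 and 8.63 CPM in Col-0 NPA. All 3 amiR-TOR NPA_Es libraries lay below those of amiR-TOR NPA (-1.65 ± 0.343, edgeR adjusted p = 0.0121). Among 13 jasmonate genes JAZ9, a repressor of the pathway, was the only member called, against 1.38% of all genes called negative. Its value was -1.20 ± 0.306 (edgeR adjusted p = 0.0369), a call lost in 10 of the 12 fits. At an unadjusted p under 0.05 in the edgeR test there were 2 positive and 5 negative jasmonate genes, against 3561 of all 21290 genes in either direction.

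In the remaining lists the edgeR test called 0 members, where 2.62% of all genes were called, a share that in lists of this size need not give any call. These were 8 nucleolar ribosome biogenesis genes, 16 of autophagy, 18 of sugar starvation, 25 of the cell cycle, 15 of camalexin and indole defence, 9 of immune response, 6 root tissue markers, 11 of nitrate, 12 each of sulfur limitation and iron, and 10 each of low oxygen and root hairs. At an unadjusted p under 0.05 there were 2 in autophagy, 1 in the cell cycle, 2 each in nitrate, sulfur and iron, and 1 each in low oxygen and the root tissue markers, and 0 in the others. DESeq2 called 1 gene of these lists, the iron storage gene FER1, and 0 in the rest. All 8 nucleolar genes lay above 0, as did 11856 of all 21290, with values between 0.07 and 0.28, and their median log2 estradiol effect was 0.95 in amiR-TOR and 0.78 in Col-0. FIB1, which encodes fibrillarin, had 215, 256 and 223 CPM in amiR-TOR NPA_Es, 155, 141 and 181 CPM in amiR-TOR NPA, 201, 177 and 222 CPM in Col-0 NPA_Es, and 191, 137 and 169.9 CPM in Col-0 NPA. The groups overlapped, and the interaction was 0.28 ± 0.172 (edgeR adjusted p = 0.442). The autophagy gene ATG8A had 0.58 ± 0.212 (edgeR adjusted p = 0.153) and the D-type cyclin gene CYCD3;1 -0.66 ± 0.254 (edgeR adjusted p = 0.179).

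**Figure D5:**
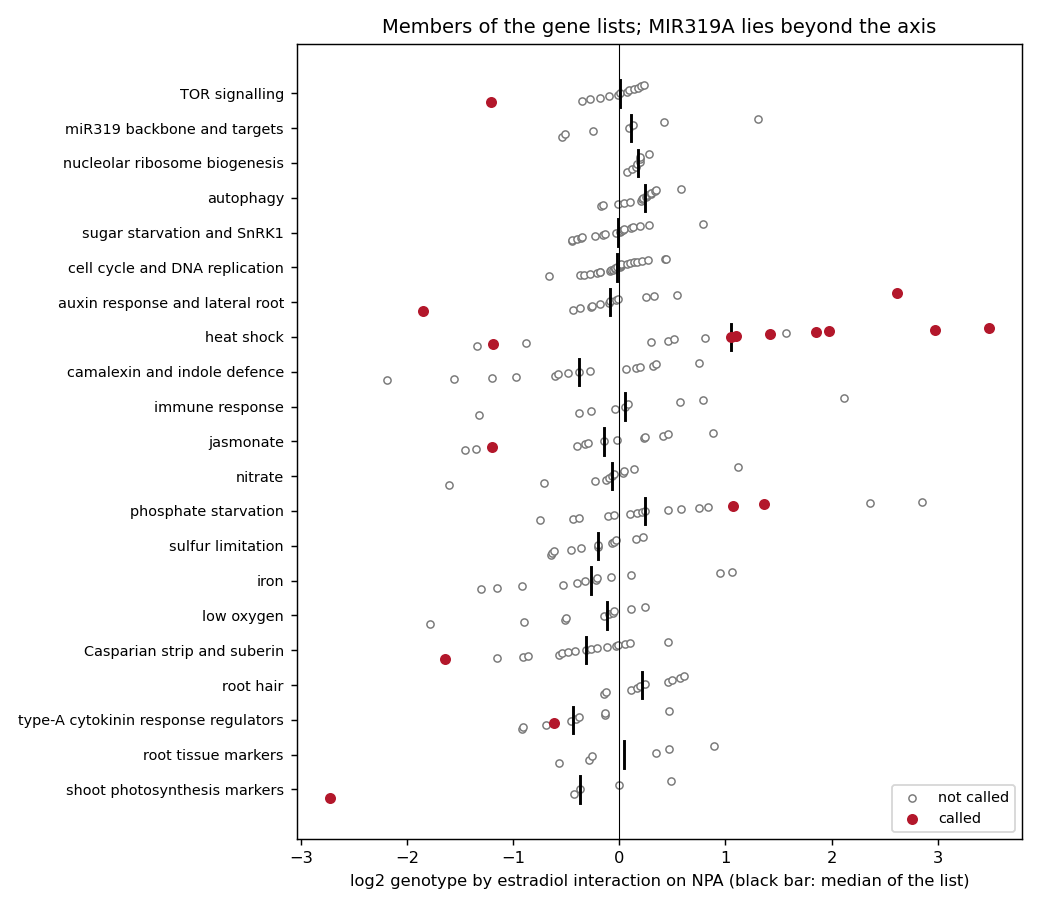
Log2 genotype by estradiol interaction on NPA of each tested member of 21 gene lists, with called members as filled points and the list median as a black bar. The heat shock list has its median at 1.05 and 8 called members, while the nucleolar genes crowd between 0.07 and 0.28 with no called member; MIR319A, at 11.93, lies beyond the axis.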

How the data were processed

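RNA was sequenced from 24 root libraries. For each, the authors deposited raw read counts per locus, unstranded and for each strand. Per the submitters' processing notes, the processing used STAR 2.5.2b, DESeq2 and TAIR10; the gene annotation is not given in the sources used here. Counts of the strand that held 95.4% to 96.3% of strand-assigned reads were analysed. Multimapping and ambiguous reads were left out, so near-identical or overlapping genes may be undercounted.

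The filterByExpr step of edgeR, given the 8 groups, retained 21290 of 32833 loci. Library sizes were scaled with TMM (factors 0.957 to 1.04), and all 24 libraries entered 1 robust quasi-likelihood fit of group means in edgeR 4.0.16 under R 4.3.3. The interaction and 4 related contrasts were tested, with Benjamini-Hochberg adjustment over all tested genes within each contrast, and genes were called at an adjusted p under 0.05. Standard errors are the log2 change divided by the square root of F. CPM values use TMM-scaled library sizes. The fit was tested on counts simulated with the spread of the main fit. Of 50 genes given a log2 interaction of 0.5 it called 3. Of 50 each it called 32 at 1, 43 at 2 and 21 at -1, and 0.0237% of unchanged genes. Small interactions were thus mostly missed there. Alternatives were RLE size factors, no low count filter, unstranded counts, a replicate block, a covariate for over 20% unmapped reads, the libraries of each comparison alone, DESeq2 1.42.0, a minimum log2 size of 1, and leaving out each library. Gene names, products and sequences are from RefSeq TAIR10.1, which held 32548 of the loci. Genes named are TOR, the 12 largest called interactions in each direction and, per list, up to 4 called members or the 2 of lowest p, with others named for their role. The gene lists, the comparison and its members were chosen with earlier results of these data known, and 3 groups of genes defined by annotated product were added after values were seen.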

Additional observations from a re-analysis of the deposited data

Results flagged for a closer look

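For 4 heat shock genes named above, the genotype by estradiol interaction differed between media by the test of the difference itself, with the higher value on NPA. The difference in log2 interaction, NPA minus IAA, was 4.61 for HSFA2, 3.41 for HSP90.1, 3.05 for HSP70-4 and 3.22 for HSP101. With 3 libraries per group, no library was tested as an outlier.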

How the results depend on the processing

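The TOR interaction kept its direction and call under every alternative run. The 558 called interactions became 1079 with DESeq2, 688 with the NPA libraries alone and 274 with a log2 size of at least 1, and lay between 295 and 632 with a library left out. With libraries left out, the estradiol effect in Col-0 (4616) lay between 2067 and 5275, the IAA interaction (1952) between 1146 and 1966, and the NPA minus IAA difference (153) between 89 and 237. The IAA interaction had 1200 calls with the IAA libraries alone, and the difference had 373 with DESeq2. Fits with a library left out leave 2 in its group and borrow the spread of the other groups. The cause of these changes was not tested.

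Equal replicate numbers did not pair the libraries. Deviations of same-numbered libraries correlated between -0.18 and 0.13, and 2 of 12 libraries correlated best with their own number. With the replicate number as a block, 461 genes were called. For 58 named genes, 1039 recomputed values kept direction and call, 57 lost the call, 5 gained it and 0 reversed. These genes include the lowest-p members of lists without a call, for which a kept call means staying uncalled. The 57 losses therefore concern only the called genes among them. Most losses were in PAP17 (14), RTFL7 (12), AT5G40620 (11) and JAZ9 (10). AT1G80165 gave no value with unstranded counts, where it has 0 reads. The unmapped-read covariate gave 674 calls and RLE size factors 543. Low counts limit MIR319A, AT5G40620, PUCHI and LBD18.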

Other observations

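Genes annotated with nuclear transport products, a group defined after values were seen, had 7 positive and 0 negative called interactions among 56 tested by edgeR, 10 positive and 1 negative by DESeq2, and 4 negative at an unadjusted p under 0.05. Over all genes, edgeR called 1.24% positive and 1.38% negative. On IAA edgeR called 6 positive and 2 negative among the 56, against 4.44% and 4.73% of all genes. The median log2 interaction of the group was 0.09 on NPA and -0.05 on IAA. RAN-1, the small GTPase that drives nuclear import and export, had 525, 868 and 577 CPM in amiR-TOR NPA_Es, 178, 158 and 186 CPM in amiR-TOR NPA, 211, 177 and 219.7 CPM in Col-0 NPA_Es, and 182, 184 and 214 CPM in Col-0 NPA. All 3 induced libraries lay above every other (log2 interaction 1.85 ± 0.205, edgeR adjusted p = 1.9e-05). The Ran release factor-like gene AT1G69680 had 45.7, 62.5 and 50.6 CPM in amiR-TOR NPA_Es and between 11.9 and 16.5 CPM elsewhere (1.95 ± 0.216, edgeR adjusted p = 1.9e-05). AT1G59660, a nucleoporin autopeptidase gene, had 36.2, 53.2 and 41.0 CPM in amiR-TOR NPA_Es and between 8.14 and 14.3 CPM elsewhere (1.61 ± 0.220, edgeR adjusted p = 0.000249). The export receptor gene XPO1B was called at 1.15 ± 0.214, and the import adaptor genes IMPA-1 at 0.77 ± 0.139 and IMPA-2 at 0.61 ± 0.139. On IAA these 6 genes had the same sign and were called, with 2.08 for RAN-1 and 2.4 for AT1G69680. The last, AT1G48570, a Ran-binding zinc finger gene, was called at 0.63 ± 0.160 on NPA, lost the call in 9 of 12 fits that left out a library, and had -0.43 on IAA. IMPA-2 lost its call in 3 of those fits.

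Ribosomal protein genes, also grouped by annotated product after values were seen, had 2 positive and 0 negative calls among 319 tested by edgeR, 4 and 0 by DESeq2 and 8 negative at an unadjusted p under 0.05, a share of 0.627% called against 2.62% of all genes. Of the 319, 256 lay above 0, with a median log2 interaction of 0.13, against 11856 of all 21290 genes and a median of 0.05. The wider group of heat shock and chaperone products had 16 positive and 2 negative calls among 249 tested on NPA, against 1.24% and 1.38% of all genes. On IAA it had 6 positive and 30 negative calls, against 4.44% and 4.73% of all genes.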
